A study of Mus musculus with 2 samples.

Results

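The genes described here are 38 genes of DNA replication licensing and of the replication fork, followed after nuclear Hoxa9 was withdrawn from transformed mouse bone marrow progenitors. They were taken by symbol from a list of gene names, and all 38 had a row among the 23235 gene rows of the deposited RNA sequencing table. There were 2 samples. The EtOH sample came from cells washed free of 4-hydroxytamoxifen (4OHT) and grown for 72 h in ethanol, its solvent, and the 4OHT sample came from cells washed likewise and returned to 100 nM 4OHT for 72 h. In both samples, lineage-depleted marrow of C57B6 mice carried the retroviral construct MIGR1-HA-Hoxa9-ER together with MIGR1-Flag-Meis1 and grew in IL3. The fusion of the homeobox factor Hoxa9 with an estrogen receptor part is nuclear with 4OHT and is lost from the nucleus without it. RNA levels do not show where that fusion protein is. Both samples carried the fusion, and they differed in the drug itself. Effects of 4OHT and of nuclear Hoxa9 therefore cannot be told apart here. The "transduced with" label writes the first virus without ER. The model is a virus-driven, transformed culture, and the number of mice behind it is not given in the sources used here.

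Levels are in FPKM, fragments per transcript length relative to a library size whose definition is not known here. Each sample stood for 2 replicates that the authors had combined, with 1 FPKM value per gene. Replicate values were therefore not analysed here, and error could enter only through the authors' own test. A gene counts as called where the authors' deposited table gives a q-value of at most 0.05, and "rose" and "fell" are used only of genes so called. Log2 changes are log2((FPKM EtOH + 1)/(FPKM 4OHT + 1)), so a positive value is higher in EtOH, and the added 1 understates the change of low genes. FPKM is scaled to transcript length, so levels can be set side by side between genes, and it does not give the read depth.

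Replication begins when the origin recognition complex, with Cdc6 and Cdt1, loads the ring of Mcm2 to Mcm7 onto DNA, a step called licensing that geminin (Gmnn) blocks once S phase has begun. The ring becomes an active helicase when the GINS complex joins it. Primase and polymerase alpha then start each strand, the clamp loader Rfc sets the sliding clamp Pcna, and polymerases delta and epsilon extend it. Transcription of many of these genes in dividing cells is controlled by E2F factors. When myeloid progenitors mature into granulocytes, they eventually stop dividing.

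The promoters of many of the replication genes held the same short words. Promoter windows of 250 bases before to 50 after the transcript start came from RefSeq on GRCm38.p6, which is not the mm9 build of the deposited loci. A window was found for 30 of the 38 genes, and 6 of these had several starts. Words searched on both strands were TTTCCCGC, TTTGGCGC and TTTCGCGC (E2F-like), CCAAT, and TTTGAA (CHR-like, a word known from mitotic genes). An E2F-like word stood in a window of 14 of 30 replication genes, or 46.7%, against 4.21% of 8437 tested genes with a window and 2.12% of all 27025 genes of the promoter table. The windows of the replication genes also had a higher GC content, with a median of 61.3% over 37 windows against 52.7% over all 32851, and the part of base composition in these shares was not tested. The stretches of 8 of the 14 genes are given because these genes span the helicase ring, its loaders, the polymerases and the clamp loader, and each holds the words with up to 20 bases on either side. Capitals mark the E2F-like words, and in Mcm5 and in the first pair of Mcm6 2 words overlap.
Mcm3, chr1:20820263-20820313, - strand: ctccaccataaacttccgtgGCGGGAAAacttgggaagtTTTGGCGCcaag
Mcm5, chr8:75109336-75109387, + strand: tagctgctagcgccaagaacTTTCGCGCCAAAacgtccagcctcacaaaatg
Mcm6, chr1:128359725-128359835, - strand: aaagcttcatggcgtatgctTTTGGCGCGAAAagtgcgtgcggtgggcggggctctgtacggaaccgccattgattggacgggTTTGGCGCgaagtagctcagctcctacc
Cdc6, chr11:98907993-98908040, + strand: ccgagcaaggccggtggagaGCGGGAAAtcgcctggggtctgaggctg
Cdt1, chr8:122568027-122568064, + strand: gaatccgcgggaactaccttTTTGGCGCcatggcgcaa
Pola1, chrX:93632266-93632313, - strand: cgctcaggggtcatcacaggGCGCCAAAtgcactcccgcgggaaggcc
Pole2, chr12:69228153-69228200, - strand: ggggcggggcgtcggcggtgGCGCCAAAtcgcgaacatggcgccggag
Rfc3, chr5:151651181-151651238, - strand: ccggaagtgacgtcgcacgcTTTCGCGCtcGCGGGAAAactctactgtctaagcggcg

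A CCAAT word stood in windows of 19 of the 30 replication genes (63.3%), against 43.5% of tested genes, and a CHR-like word in 4 (13.3%), against 14.4% of tested genes. The E2F-like word was not limited to the 38 genes. It stood in windows of 8 of 28 other replication factors (28.6%), 5 of 21 genes of nucleotide supply and other S phase partners (23.8%) and 3 of 6 E2F factors (50%). Among 21 mitotic genes with a window, 1 (4.76%) held an E2F-like word, 16 (76.2%) a CCAAT word and 15 (71.4%) the CHR-like word. These matches describe letters in a window and are not binding sites shown to be in use. The 20 E2F-like words lay between positions -181.5 and 42.5 relative to the transcript start, with a median of -22, measured in bases to the middle of the word.

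**Figure D1:**
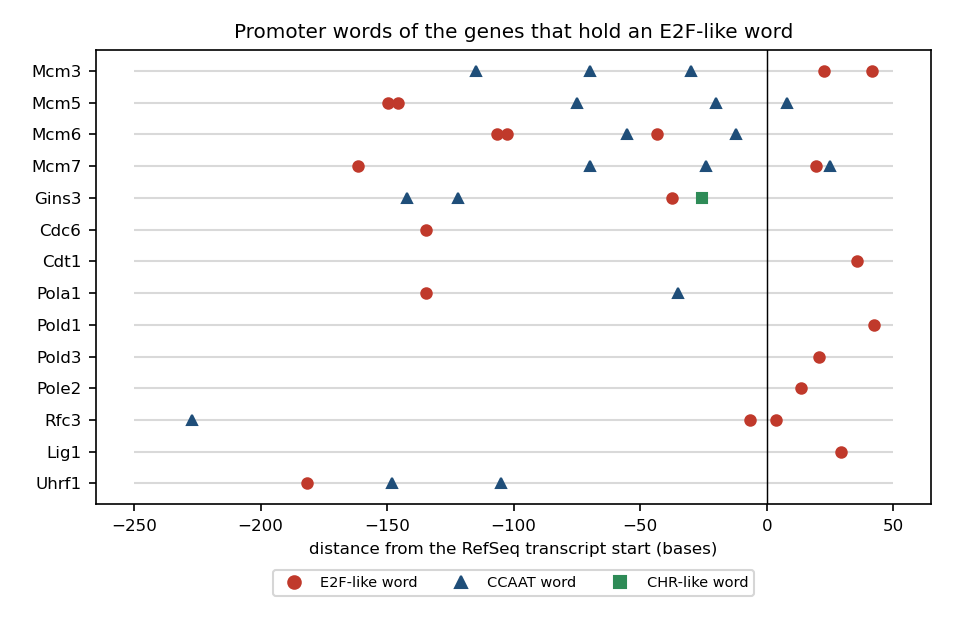
Positions of the 3 kinds of promoter word (symbols) in bases from the RefSeq transcript start, for the 14 replication genes with an E2F-like word. The E2F-like words lie on both sides of the start, from position -181.5 in Uhrf1 to 42.5 in Pold1.

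RNA of most replication genes differed little between cells without 4OHT for 72 h and cells kept in it. Of the 38 genes 37 were tested in the authors' deposited table, and 2 of them (5.41%) fell, the flap nuclease gene Fen1 and the polymerase delta subunit gene Pold2, while 0 rose. Across all 11865 tested genes the same rule called 22.5%, with 12.0% higher and 10.5% lower in EtOH. At an unadjusted p of at most 0.05 the authors' deposited table held 5 replication genes, all lower in EtOH, or 13.5% against 31.5% of all tested genes (15.6% higher and 15.8% lower). At a q-value of at most 0.01 it held 1 (Fen1, lower) against 9.41% of all tested genes higher and 6.68% lower, and at 0.05 with a change of at least 1.5-fold it held 0 against 9.89% and 7.23%. Their median log2 change was -0.08, beside -0.06 across all 11022 genes that reached 1 FPKM in either sample. The level in EtOH was between 0.8 and 1.2 times that in 4OHT for 32 of 38 genes (84.2%), beside 56.8% of those 11022 genes and 65.3% of 7034 tested genes in the same FPKM range. Related lists, described below, were similar in part. The share was 82.4% of 34 other replication factors and 91.7% of 24 mitotic genes. It was 72% of 25 genes of nucleotide supply and other S phase partners, and 37.5% of 8 E2F factors. Together the 38 genes summed to 1511 FPKM in EtOH and 1598 FPKM in 4OHT, or 0.256% and 0.293% of all FPKM.

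On balance the values leaned slightly lower in EtOH, but how far depended on the scaling. As deposited, 28 of 38 log2 changes were below 0, against 57.1% of all genes of at least 1 FPKM. After the EtOH values were scaled to give both samples the same FPKM total, 33 of 38 were below 0, against 69.1% of all these genes. With the median change of genes of at least 5 FPKM in both samples set to 0, 22 of 38 were, against 49.5%. These counts depend on the scaling, which moves the replication genes and all other genes together. As shares they were 73.7%, 86.8% and 57.9%, each above the share of all genes, and the cause of that difference was not tested. In the same order, the shares were 76.5%, 94.1% and 44.1% for the 34 other replication factors, described below. They were 54.2%, 83.3% and 29.2% for mitotic genes, 52%, 68% and 40% for S phase partners, and 75% each time for E2F factors. As deposited, 59.8% of 7034 tested genes in the same FPKM range were below 0. The scaling to the same total moved the median of genes of at least 5 FPKM in both samples from -0.06 to -0.17, a shift of -0.11. The falls of Fen1 and Pold2 kept their direction under both scalings.

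The authors' p-values also show how much error their test assigned to these changes. How the replicates entered that test is not known here. The intervals implied by it, here and below, may therefore not cover the spread between cultures. Taken as two-sided normal tests of the log2 ratio without the added 1, they imply a standard error per gene of 0.14 to 0.45, with a median of 0.16 over the 37 tested replication genes. The 95% interval so implied lay inside a 2-fold change in either direction for 36 of 37 genes and inside a 1.5-fold change for 24 of 37. The exception at 2-fold was Rfc4, with a ratio of EtOH over 4OHT between 0.494 and 1.66. Whether a gene was called went with the size of its observed log2 ratio. The shares called therefore do not measure how small a true change would be found. Of tested genes in the FPKM range of the replication genes, the authors called 65.5% of 853 with a log2 ratio of size 0.4 to 0.6, 2.26% of 2032 at 0.2 to 0.4 and 0 of 3335 under 0.2. These 3 ranges held 2, 11 and 24 of the tested replication genes, and 0 replication genes had a larger log2 ratio. A p-value that misses the threshold does not show that a level was the same in both samples.

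**Figure D2:**
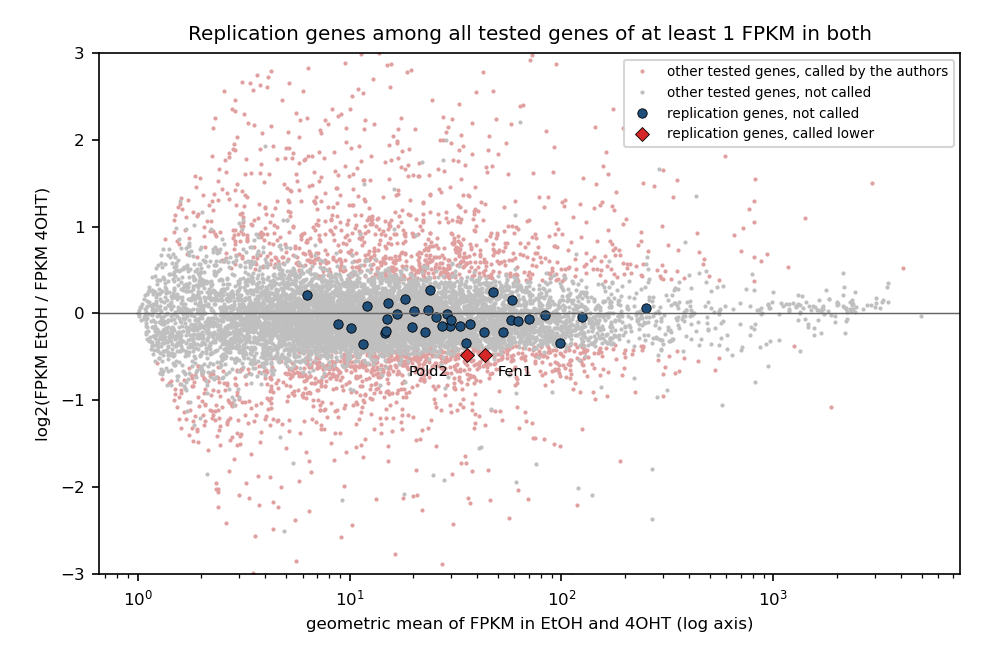
Log2 ratio of EtOH over 4OHT against the geometric mean of both FPKM values (log axis) for tested genes of at least 1 FPKM in both samples, with 37 replication genes on top. The replication genes lie in the central band, and Fen1 and Pold2 stand at its lower edge; 55 of 10309 genes fall outside the plotted range.

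Markers of maturing myeloid cells differed widely between the samples. Summed levels of 5 neutrophil markers were 16008 FPKM in EtOH and 51.3 FPKM in 4OHT, and all 5 rose. The summed levels of eosinophil markers were 4512 FPKM in EtOH and 116 FPKM in 4OHT, and those of basophil and mast cell markers were 2960 FPKM in EtOH and 701 FPKM in 4OHT. All 5 of these genes rose. Macrophage markers did not move one way. Csf1r rose to 2.1 FPKM in EtOH, against 0.347 FPKM in 4OHT, and Mrc1 rose to 1.92 FPKM, against 0.0839 FPKM in 4OHT. Emr1 fell to 102 FPKM in EtOH, against 202 FPKM in 4OHT, and Cd68, at 30.6 and 41.8 FPKM, was not called, so the sum of 137 FPKM in EtOH and 244 FPKM in 4OHT rests mostly on Emr1. Of 5 progenitor markers, which check the labelled cell type, 3 fell. The stem cell antigen gene Cd34 stood at 45.8 FPKM in EtOH and 124 FPKM in 4OHT, and the receptor gene Kit, which was not called, at 10.1 and 7.39 FPKM. Erythroid markers summed to 1.25 FPKM in EtOH and 3.95 FPKM in 4OHT over 2 of 3 genes matched. All 3 T cell markers were listed at 0 in both samples, and B cell markers lay at or under 0.0729 FPKM. In bulk RNA, fewer cells of a type and less RNA per cell cannot be told apart, and the part of these shifts in the levels of replication genes was not tested.

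The genes of the Mcm ring, the core of the replicative helicase, were abundant, and none of the 6 was called. Mcm6 stood at 124 FPKM in EtOH and 127 FPKM in 4OHT, and Mcm7 at 83.2 and 84.2 FPKM, with log2 changes of -0.04 and -0.02. Mcm3 came nearest to a call, with 87.5 FPKM in EtOH and 111 FPKM in 4OHT, a log2 change of -0.34. Its p-value was 0.0144 and its q-value 0.0606 in the authors' deposited table, and the implied interval of the ratio was 0.650 to 0.954. Mcm2, at 49.2 FPKM in EtOH and 57.0 FPKM in 4OHT, and Mcm4, at 40.1 and 46.3 FPKM, had log2 changes of -0.21 and -0.20. Mcm5 lay on the other side, with 61.5 FPKM in EtOH and 55.3 FPKM in 4OHT and a log2 change of 0.15. The highest and the lowest of the 6 subunits were 3.09-fold apart in EtOH and 2.75-fold apart in 4OHT, although the protein ring holds them in equal number. The Mcm7 locus entry also held rows for Mir25, Mir93 and Mir106b, microRNAs that lie inside the gene. Of the 50-base words of Mcm7 transcripts, 23.3% occur in other genes, mainly Gm5487 (16.5% of all its words), which had no row in the deposited table. Here and below, a word also counts as shared where its reverse complement occurs in another gene. None of these microRNA rows was called. The rows of Mir25 and Mir106b were at 21.0 and 24.3 FPKM in EtOH and 37.99 and 70.8 FPKM in 4OHT, and Mir93 was at 17.5 FPKM in EtOH and listed at 0 in 4OHT.

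GINS genes, whose products turn the Mcm ring into a working helicase, were lower in level than the ring. Gins4 stood at 25.1 FPKM in EtOH and 25.8 FPKM in 4OHT, Gins1 at 12.4 and 11.7 FPKM, and Gins3 at 6.82 and 5.88 FPKM, the lowest level of all 38 genes. None of these 3 was called, and Gins3 had the largest log2 change upwards among them, at 0.18. Gins2 was the only 1 of the 38 genes with a failed test in the authors' deposited table, where 21 rows failed in all. Its levels of 19.3 FPKM in EtOH and 23.9 FPKM in 4OHT therefore carry no p-value, and the log2 change of -0.29 cannot be set against an error. Its entry, on mm9 chromosome 8 from 123012766 to 123112975, spans 100210 bases and is shared with Gse1, whose test failed too. Gse1 stood at 21.6 FPKM in EtOH and 20.6 FPKM in 4OHT. In GENCODE M21, 65.4% of the 50-base words of Gins2 transcripts also occur, on either strand, in transcripts of Gse1, which leaves the level of Gins2 uncertain. How uncertain it is depends also on whether the library kept the strand, which is not known here.

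The loaders of the ring and their inhibitor were not called either. Cdt1, the loading factor, had the largest log2 change upwards among the 38 genes, 0.25, with 26.2 FPKM in EtOH and 21.8 FPKM in 4OHT. In the authors' deposited table its p-value was 0.105 and its q-value 0.272, and the implied interval of the ratio, 0.962 to 1.501, included no change. Gmnn, which encodes the inhibitor of Cdt1, stood at 56.1 FPKM in EtOH and 59.3 FPKM in 4OHT, the highest level of this group. Orc2, a subunit of the origin recognition complex, had 21.0 FPKM in EtOH and 24.3 FPKM in 4OHT (log2 change -0.21), and 26.7% of its words are shared with its neighbour Nif3l1. Cdc6, the ATPase that recruits the ring, was at 9.55 FPKM in EtOH and 10.7 FPKM in 4OHT. Mcm10, which helps to activate the helicase, was at 14.6 FPKM in EtOH and 15.3 FPKM in 4OHT.

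**Figure D3:**
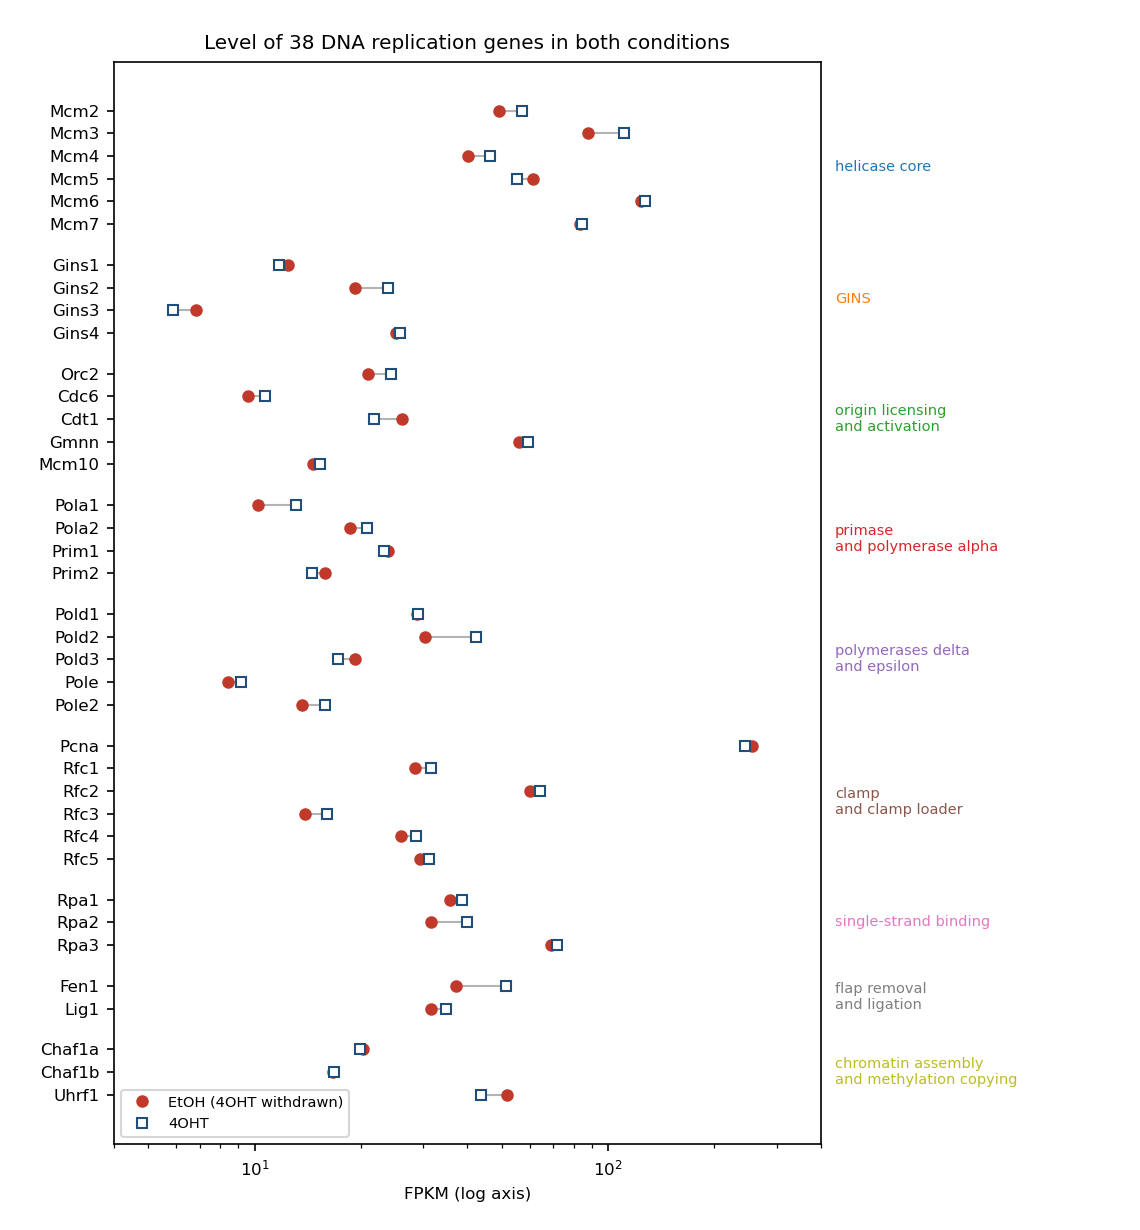
FPKM (log axis) of each of the 38 genes in EtOH (filled circles) and in 4OHT (open squares), grouped by role. The 2 symbols lie close together for most genes, and levels run from 6.82 FPKM (Gins3) to 255 FPKM (Pcna) in EtOH.

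Among the 4 genes of primase and polymerase alpha, which lay down the first bases of each new strand, levels were even and 0 were called. Prim1, the catalytic primase subunit, stood at 23.9 FPKM in EtOH and 23.2 FPKM in 4OHT, and Prim2 at 15.8 and 14.6 FPKM. Pola2, the accessory subunit of the polymerase, had 18.6 FPKM in EtOH and 20.8 FPKM in 4OHT. The catalytic subunit gene Pola1 had 10.2 FPKM in EtOH and 13.1 FPKM in 4OHT, a log2 change of -0.32. For Pola1 the authors' deposited table gave a p-value of 0.0269 and q = 0.0988, and the implied ratio was between 0.632 and 0.973. The highest and lowest of these 4 genes were 2.33-fold apart in EtOH and 1.77-fold apart in 4OHT.

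Among the 38 genes were 5 for subunits of polymerases delta and epsilon, which copy the bulk of the genome, and 1 of these 5 was called. Pold2, the second subunit of polymerase delta, fell to 30.3 FPKM in EtOH, against 42.2 FPKM in 4OHT, a log2 change of -0.46. In the authors' deposited table its p-value was 0.0035 and its q-value 0.0194, and the implied interval of the ratio was 0.576 to 0.897. The gene lies on mm9 chromosome 11, and its entry from 5761869 to 5778259 is shared with Aebp1, which was not tested and stood at 0.0242 FPKM in EtOH and 0.112 FPKM in 4OHT. Pold1 and Pold3, the other delta genes among the 38, were not called. Pold1, the catalytic subunit, was at 28.8 FPKM in EtOH and 29.0 FPKM in 4OHT, and Pold3 at 19.2 and 17.2 FPKM. The epsilon genes among the 38, Pole and Pole2, were lower in level and not called, with Pole at 8.42 FPKM in EtOH and 9.18 FPKM in 4OHT, and Pole2 at 13.6 and 15.8 FPKM. Whether Pold2 differs in its change from Pold1 was not tested.

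Pcna, the sliding clamp that holds polymerases on DNA and a common marker of dividing cells, was the most abundant of the 38 genes. It stood at 255 FPKM in EtOH and 245 FPKM in 4OHT, a log2 change of 0.06, with a p-value of 0.676 in the authors' deposited table. The implied interval of its ratio, 0.859 to 1.26 included no change. Of its 50-base words, 19.1% also occur in the pseudogene Pcna-ps2. The 5 clamp loader genes lay lower. Rfc2 was at 60.3 FPKM in EtOH and 64.0 FPKM in 4OHT, Rfc5 at 29.4 and 31.1 FPKM, Rfc1 at 28.4 and 31.5 FPKM, and Rfc3 at 13.9 and 16.0 FPKM. All 5 had log2 changes from -0.19 to -0.08, and 0 were called. Of the 50-base words of Rfc2, 16.0% occur in other genes, mainly Lat2, which rose to 104 FPKM in EtOH, against 66.7 FPKM in 4OHT. Of those of Rfc5, 13.3% do, mainly in Wsb2, which rose to 17.3 FPKM in EtOH, against 12.5 FPKM in 4OHT. The part of these shared words in the levels of Rfc2 and Rfc5 was not tested. Rfc4, at 25.9 FPKM in EtOH and 28.6 FPKM in 4OHT, had the widest implied error of all 37 tested genes, 0.45 on the log2 scale. Its locus entry on mm9 chromosome 16 is shared with the translation factor gene Eif4a2, at 103 FPKM in EtOH and 77.2 FPKM in 4OHT, and with rows for Snord2 and Snora81.

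The single-strand binding protein Rpa, which coats unwound DNA, has 3 subunits, and none was called. Rpa3 was at 69.0 FPKM in EtOH and 71.9 FPKM in 4OHT, and Rpa1 at 35.7 and 38.7 FPKM. Rpa2 stood at 31.6 FPKM in EtOH and 40.0 FPKM in 4OHT, a log2 change of -0.33. Its p-value was 0.0339 and its q-value 0.118 in the authors' deposited table, and the implied ratio lay between 0.636 and 0.982.

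Fen1, the nuclease that removes the flaps left at the ends of lagging-strand fragments, had the largest change of the 38 genes. It fell to 37.1 FPKM in EtOH, against 51.6 FPKM in 4OHT, a log2 change of -0.47. In the authors' deposited table its p-value was 0.00151 and its q-value 0.00946, and the implied interval of the ratio was 0.586 to 0.881. The gene lies on mm9 chromosome 19 from 10273629 to 10278433. In GENCODE M21, 76.7% of its 50-base words also occur in other genes, and 75.4% of all its words occur in Gm10143, which had no row in the deposited table. Matches on the opposite strand count in these shares. How uncertain they leave the level of Fen1 depends also on the strand setting, which is not known here. Its neighbour 1810006K21Rik, 258 bases away, was at 389 FPKM in EtOH and 425 FPKM in 4OHT and was not called. Lig1, the ligase that seals the fragments after Fen1 has acted, was at 31.5 FPKM in EtOH and 34.8 FPKM in 4OHT and was not called, with a log2 change of -0.14.

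The promoter windows of both called genes are shown whole, as the counterpart of the stretches above. Neither holds an E2F-like word, which 16 of the 30 replication genes with a window lacked. Only the 3 exact words were searched, so near matches were not counted. Capitals mark CCAAT words, read on either strand, of which Pold2 has 3 and Fen1 has none. Fen1 and Pold2 each have another RefSeq start as well, and the windows there hold 1 and 2 CHR-like words.
Fen1, chr19:10203872-10204171, - strand: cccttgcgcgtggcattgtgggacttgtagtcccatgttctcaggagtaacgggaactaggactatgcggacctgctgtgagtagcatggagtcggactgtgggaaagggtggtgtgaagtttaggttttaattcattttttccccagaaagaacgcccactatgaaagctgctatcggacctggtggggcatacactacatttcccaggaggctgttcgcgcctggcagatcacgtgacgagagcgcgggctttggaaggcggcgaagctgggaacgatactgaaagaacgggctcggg
Pold2, chr11:5878207-5878506, - strand: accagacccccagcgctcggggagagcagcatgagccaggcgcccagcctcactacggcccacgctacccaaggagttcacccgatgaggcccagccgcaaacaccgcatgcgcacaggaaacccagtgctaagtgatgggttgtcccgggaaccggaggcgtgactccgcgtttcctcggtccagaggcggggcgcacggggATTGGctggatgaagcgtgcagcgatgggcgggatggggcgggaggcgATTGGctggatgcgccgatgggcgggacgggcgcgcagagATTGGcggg

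Genes with and without the E2F-like word overlapped in their change. Replication genes with the word in a window had a median log2 change of -0.03, with a range of -0.34 to 0.25 over 14 genes. Those without it had a median of -0.13, with a range of -0.47 to 0.06 over 16 genes. Over all 341 tested genes of at least 1 FPKM with the word, the median was -0.08. All 5 genes with the word and a log2 change above 0 (Mcm5, Gins3, Cdt1, Pold3 and Uhrf1) stood below the threshold of a call.

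Genes of chromatin copying behind the fork were close in both samples. Chaf1a and Chaf1b encode subunits of the assembly factor that puts histones on new DNA. Chaf1a was at 20.3 FPKM in EtOH and 19.9 FPKM in 4OHT, and Chaf1b at 16.6 and 16.7 FPKM. In GENCODE M21, 49.7% of the words of Chaf1a also occur in its neighbour Ubxn6, which was not called, at 24.3 FPKM in EtOH and 20.3 FPKM in 4OHT. Uhrf1, which brings the maintenance DNA methyltransferase to new strands, had 51.9 FPKM in EtOH and 43.6 FPKM in 4OHT. The log2 change of Uhrf1 was 0.25, with a p-value of 0.155 and q = 0.356 in the authors' deposited table. Of the 50-base words of Uhrf1, 15.4% occur in other genes, mainly Gm5648, which had no row there. Chaf1a and Uhrf1 are the closest pair of the 38 genes, 235310 bases apart on mm9 chromosome 17, while the genes as a whole were spread over 15 chromosomes.

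**Figure D4:**
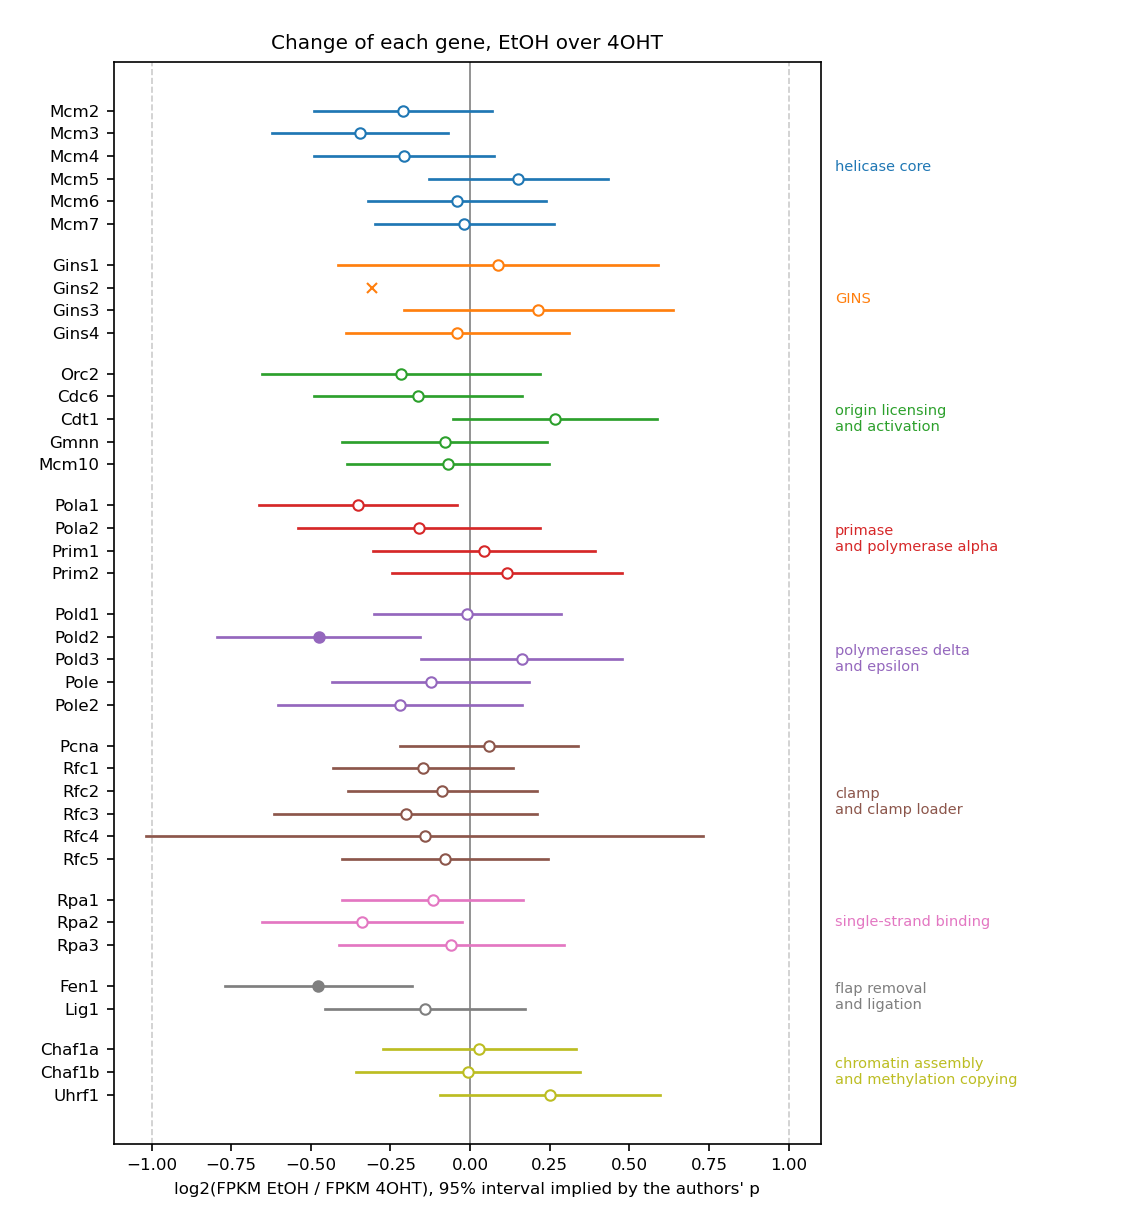
Log2 ratio of EtOH over 4OHT for each gene, with the 95% interval implied by the authors' p-value; filled circles are genes called lower, open circles genes not called, the cross is Gins2 with a failed test, and dashed lines mark a 2-fold change. The intervals of Fen1, Pold2, Mcm3, Pola1 and Rpa2 end below 0, and that of Rfc4 is the widest.

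The same genes held the ends of the order of levels in both samples. The 5 most abundant RNAs were Pcna, Mcm6, Mcm3, Mcm7 and Rpa3, in this order, in EtOH and in 4OHT. The 3 lowest were Gins3, Pole and Cdc6 in both. With 1 value per sample there is no spread between replicates, so the order of near neighbours such as Mcm3 and Mcm7 in EtOH, at 87.5 and 83.2 FPKM, is not settled.

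Other genes of the replication pathway, on a list of 34 further replication factors, were also mostly not called. Of the 34 genes, all tested, 2 rose, 1 fell and 31 were not called, with a median log2 change of -0.06 beside -0.08 for the 38 genes. Across all 11865 tested genes 22.5% were called, 12.0% higher and 10.5% lower in EtOH. Pold4, the smallest subunit of polymerase delta, rose to 69.7 FPKM in EtOH, against 45.7 FPKM in 4OHT (log2 change 0.60). The q-value of Pold4 was 0.00217 in the authors' deposited table. Rnaseh2c, a subunit of the nuclease that removes RNA from DNA, rose to 108 FPKM in EtOH, against 75.6 FPKM in 4OHT (log2 change 0.51). Chtf8, a subunit of an alternative clamp loader, fell to 41.3 FPKM in EtOH, against 54.0 FPKM in 4OHT (log2 change -0.38). Pole3 and Pole4, small subunits of polymerase epsilon, were not called, at 43.2 and 27.2 FPKM in EtOH and 56.5 and 34.4 FPKM in 4OHT. Polymerase delta subunits over both lists included 1 gene that fell (Pold2), 1 that rose (Pold4) and 2 that were not called (Pold1 and Pold3).

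Among 25 genes of nucleotide supply and other S phase partners, 1 rose, 1 fell and 23 were not called, with a median log2 change of -0.0025. Ccne1, the cyclin that drives entry into S phase, rose to 10.4 FPKM in EtOH, against 6.71 FPKM in 4OHT. Rbbp7, a histone-binding protein, fell to 81.8 FPKM in EtOH, against 109 FPKM in 4OHT. Of 24 mitotic genes 1 rose and 23 were not called, with a median of -0.02. Both lists stand beside 22.5% called among all tested genes. The mitotic gene that rose was the kinesin gene Kif23, at 19.1 FPKM in EtOH and 12.3 FPKM in 4OHT.

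The E2F factors, the known regulators of replication genes, had log2 changes from -0.79 to 1.29, beside -0.47 to 0.25 for the 38 replication genes. Of 8 factors, 1 rose, 2 fell and 5 were not called, beside 12.0% higher and 10.5% lower among all tested genes. E2f2 rose to 14.4 FPKM in EtOH, against 5.31 FPKM in 4OHT. E2f8, a repressor, fell to 27.2 FPKM in EtOH, against 47.7 FPKM in 4OHT, and E2f4 fell to 36.2 FPKM, against 50.2 FPKM in 4OHT.

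**Figure D5:**
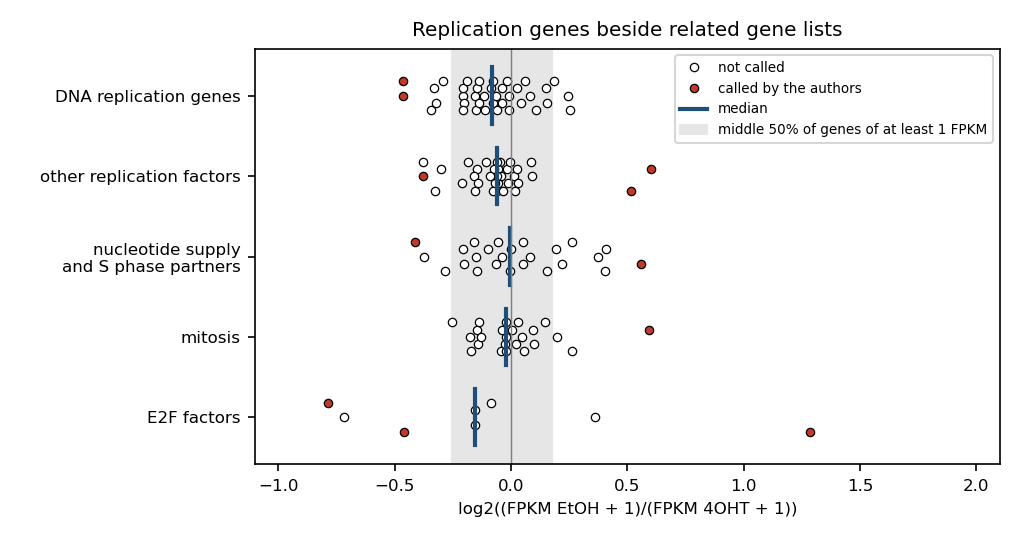
Log2((FPKM EtOH + 1)/(FPKM 4OHT + 1)) of each gene of 5 lists, with genes called in the authors' deposited table filled, medians as blue bars, and the middle 50% of all genes of at least 1 FPKM shaded. Fen1 and Pold2 are the filled points of the 38 replication genes, at -0.47 and -0.46, and E2f2 lies farthest to the right, at 1.29.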

How the data were processed

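RNA sequencing of 2 samples, EtOH and 4OHT, was analysed from 1 deposited table. The submitters' processing notes name the mm9 build and the tools Cuffdiff 2.0.2, Bowtie2 2.0.0.7 and CASAVA 1.8.2. No source used here gives the annotation, strand setting or library scaling. Per the file headers, the authors gave FPKM per condition, p-values and q-values of EtOH against 4OHT, a test status, a test statistic (a score per row) and a fold (ratio) of EtOH over 4OHT. Of 23235 rows the authors tested 11865. The deposited q-values equal a Benjamini-Hochberg adjustment over the tested rows to within 1.7e-06. FPKM does not give depth, and how replicates entered the test is not known here.

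The rows of the 38 genes were taken by exact symbol, and older symbols of other lists through RefSeq synonyms. Log2 changes used a pseudocount of 1, and list medians those genes that reached 1 FPKM in either condition, which all 38 passed. The implied standard error is the size of the log2 ratio divided by the normal deviate of the authors' p-value, which equals the size of their test statistic to within 0.001. Named genes were those called, those without a test result, the highest and most changed of each role group, and the 5 with the smallest p; the remaining ones are given by level. Shared 50-base words came from GENCODE M21 transcripts, and matches on the same and on the opposite strand were counted together. Python 3.11.15, numpy 2.4.6, pandas 2.3.3 and scipy 1.17.1 were used, and the steps were tested on simulated data. Starts count from 1. The genes and lists were chosen by name and role, with earlier results of these data known. Alternatives were 2 other pseudocounts, filters, 2 scalings and 3 call rules.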

Additional observations from a re-analysis of the deposited data

How the results depend on the processing

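Of the 38 replication genes, 2 were called lower at a q-value of at most 0.05. The number was 1 at a q-value of at most 0.01 (Fen1), 0 at 0.05 with a change of at least 1.5-fold, and 5 at an unadjusted p of at most 0.05, and it did not change with a minimum of 5 FPKM. Under these rules 0 were called higher. Their median log2 change of -0.08 was -0.20 when both samples were given the same FPKM total and -0.017 with the median change of abundant genes set to 0; both pseudocounts and both filters left it at -0.08. For the 34 other replication factors, the 2 called higher became 1 at the stricter q and 1 with the ratio of 1.5. The 1 called lower became 0 under each of these rules and 4 at the unadjusted p. Their median of -0.06 was -0.048 with a pseudocount of 5 and -0.17 with sum scaling, and it turned to 0.0023 with the median set to 0. By construction a scaling moves all log2 changes in 1 direction, by slightly unequal amounts because of the added 1, and it turned the sign of 5 replication genes with sum scaling and of 6 with the median set to 0, none of them called.

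No paired analysis was possible because each condition had 1 deposited value in which replicates 1 and 2 were combined, and no replicate was left out for the same reason. With no read totals, the counting error of a single level is not known. Fen1 and Gins2 rest on sequence largely shared with other genes, with matches on either strand counted.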
